A study of Homo sapiens with 27 samples.

Results

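The cluster of miR-424, miR-503, miR-450 and miR-542 is a group of miRNA hairpins encoded close together on the long arm of the X chromosome. Its 7 members here are hsa-miR-424-5p, hsa-miR-424-3p, hsa-miR-503-5p, hsa-miR-450a-5p, hsa-miR-450b-5p, hsa-miR-542-3p and hsa-miR-542-5p (written without hsa from here on), taken by name from 2276 miRNAs listed in at least 1 of 9 miRNA count tables. The tables hold 27 small RNA libraries, 3 for each of 9 groups. The study asked how loss of USB1, a 3' to 5' RNA exonuclease that removes adenosine tails, changes miRNA levels, and whether lowering PAPD5, a polymerase that adds such tails, or PARN, a poly(A)-specific ribonuclease, changes them further. In 5 groups the cells were of the established line H1, derived from a human embryo (human embryonic stem cells, hESCs). These were wild type (WT), the USB1 mutant made by CRISPR/Cas9 (USB1 mut), the mutant carrying a doxycycline-inducible WT USB1 transgene (iUSB1-WT) without Dox or with Dox, and the mutant carrying a short hairpin RNA against PAPD5 (shPAPD5). The last 3 groups all carry the mutation, and their insertions sit at the AAVS1 locus, so WT cells are the only hESCs with intact USB1 alleles. In 4 groups the cells were K562, an established chronic myelogenous leukaemia (CML) line, as a control, a USB1 knockout (USB1 KO), the control with a hairpin against PARN (shPARN), and the USB1 KO with shPARN. The mutant and the KO were picked as clones, so the effect of USB1 loss and differences between clones cannot be told apart. None of these groups is described as having a hairpin without a target. The study calls libraries of its WT and USB1-deficient groups biological replicates, and the labels do not describe how they were grown apart, so p-values measure the spread between libraries, whatever its source.

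miRNAs are cut from hairpin precursors, and either strand of a hairpin, the 5p arm or the 3p arm, can be loaded into an Argonaute protein, where bases 2 to 8 (the seed) select target mRNAs. miR-424 and miR-503 belong to the extended miR-15/16 family, known for repressing cyclins and other drivers of the cell cycle, and miR-424 is known to rise during monocyte differentiation. The hairpins of the cluster are thought to be made largely from shared primary transcripts.

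All 6 hairpins lie on the minus strand of chromosome X in a stretch of 6.53 kb, chrX:134540185-134546711 in GRCh38 with GENCODE release 44. In the direction of transcription the order is MIR424 (134546614 to 134546711), MIR503 (134546328 to 134546398), MIR542 (134541341 to 134541437), MIR450A2 (134540508 to 134540607), MIR450A1 (134540341 to 134540431) and MIR450B (134540185 to 134540262). MIR424 and MIR503 are 215 bases apart and are followed by a gap of 4890 bases. The long non-coding RNA gene MIR503HG (134543119 to 134546642, same strand) holds the whole MIR503 hairpin, of which 5 bases are annotated as exonic, and 29 bases of MIR424 overlap its exons. The other 4 hairpins lie outside it. RefSeq entries on GRCh38.p14 gave the mature sequence of 6 of the 7 members. They are shown because reads were assigned to a miRNA by this sequence and because the seeds define which members are related, with the seed in capitals:
miR-424-5p: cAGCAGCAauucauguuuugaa
miR-424-3p: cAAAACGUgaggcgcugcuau
miR-503-5p: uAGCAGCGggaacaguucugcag
miR-450a-5p: uUUUGCGAuguguuccuaauau
miR-450b-5p: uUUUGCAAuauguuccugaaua
miR-542-5p: uCGGGGAUcaucaugucacgaga
The 6 sequences had 6 different seeds. miR-424-5p shares its seed with miR-15a, miR-15b, miR-16, miR-195 and miR-497 (5p arms), whereas the seed of miR-503-5p differs from it by the substitution A8G. Positions are counted from 1 at the 5' end of the miRNA named first, whose base is written first. miR-450a-5p and miR-450b-5p are identical at 16 of 22 positions and differ in the seed by G7A. The same miR-450a-5p sequence is encoded in MIR450A1 and MIR450A2, so its count is the sum of both hairpins. miR-542-3p is named only. The MIR424 and MIR503 hairpins, whose arm ratios are given with the comparison of arms, are printed with the mature arms in capitals, the 5p arm first:
MIR424: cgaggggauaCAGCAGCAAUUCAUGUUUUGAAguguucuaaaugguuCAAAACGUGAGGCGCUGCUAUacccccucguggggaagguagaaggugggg
MIR503: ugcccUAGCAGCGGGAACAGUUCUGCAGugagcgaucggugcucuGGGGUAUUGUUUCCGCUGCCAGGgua

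Depth ran from about 12258400 to 35734500 miRNA counts per library in hESCs and from 1530930 to 13183200 in K562, where USB1 KO library 3 was the shallowest. Levels are given as CPM, the count of a miRNA per 1000000 counts of its library, after TMM scaling, which corrects for differences in library composition. Marker sums are CPM of the library total, without TMM. The hESC markers (4 arms of the miR-302 family and miR-367-3p) summed to 178089 to 397533 CPM in the 15 hESC libraries. In K562 their listed counts reached 766 and 813 CPM in control libraries 1 and 2 and at most 0.715 CPM in the other 10. Summed over the members, with TMM, the cluster was at 213, 237 and 266 CPM in control libraries 1 to 3. The part of the hESC signal in these values was not tested. The blood markers (miR-451a, miR-144-3p, miR-486-5p, miR-142-3p, miR-223-3p) summed to 6106 to 10667 CPM in K562 and 92.3 to 337 CPM in hESCs. In these bulk libraries fewer cells of a type and less of a miRNA per cell cannot be told apart, and USB1, PAPD5 and PARN themselves were not measured by miRNA counting.

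Of the 7 members, 6 were listed in all 9 tables and passed the filter on low counts in both cell lines. The exception, miR-542-5p, was listed in 2 tables. It had 2, 0 and 0 counts in the iUSB1 libraries without Dox and 1, 4 and 0 in the shPAPD5 libraries. Each table lists only miRNAs counted in its first library, so in the other 7 tables that library held 0 counts of miR-542-5p, which allows up to 0.164 to 0.317 CPM (3 counts in a library, counting error only), and its level in the remaining libraries is not known. It is left out of everything that follows, and the 6 others are called the tested members.

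The cluster was a minor part of both miRNA pools. Summed over the members it took 144.6 ± 27.2 CPM in WT hESCs and 238 ± 26.7 CPM in control K562 (SD, n = 3). TMM was fitted within each line here, so these and the following CPM are not on a scale shared by the lines. With TMM over both lines, 3 members had a positive and 3 a negative log2 fold change in WT hESCs against control K562. In WT hESCs miR-450b-5p (55.9 ± 2.77 CPM) and miR-503-5p (39.7 ± 18.2 CPM) were the most counted members, followed by miR-542-3p (22.7 ± 2.95), miR-424-3p (11.9 ± 5.74), miR-450a-5p (11.6 ± 2.95) and miR-424-5p (2.74 ± 0.781). The levels of miR-424-3p and miR-450a-5p lay within each other's spread. In control K562 miR-450b-5p (74.5 ± 10.2 CPM) and miR-424-3p (72.7 ± 8.03) stood highest and did not differ beyond their spread. They were followed by miR-503-5p (31.5 ± 1.03), miR-450a-5p (29.6 ± 6.55), miR-542-3p (22.4 ± 3.03) and miR-424-5p (7.69 ± 0.931). Mature lengths run from 21 to 23 bases, so no length correction was applied. The lowest count behind a tested value was 7, for miR-424-5p in a Dox-treated hESC library, whose exact Poisson 95% interval of 2.81 to 14.4 counts covers counting error only.

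Loss of USB1 in hESCs was accompanied by lower levels of most of the cluster. In USB1 mutant against WT cells 4 of the 6 tested members fell and none rose, where 4.51% of all 998 tested miRNAs fell and 2.91% rose (edgeR quasi-likelihood test, Benjamini-Hochberg adjusted p under 0.05). Their median log2 fold change was -1.05, beside 0.04 over all tested miRNAs. The sum of the members was 176, 129 and 129 CPM in the WT libraries and 69.1, 69.6 and 69.3 CPM in the mutant.

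miR-503-5p, the cell cycle regulator next to miR-424, was at 60.7, 28.7 and 29.5 CPM in WT libraries 1 to 3 and at 11.9, 13.3 and 13.6 CPM in the mutant libraries. The groups did not overlap, and WT library 1 was far above the other WT libraries. Its log2 fold change was -1.62 (SE 0.26, edgeR adjusted p = 0.00214). miR-542-3p, known for repressing the survivin gene BIRC5, was at 19.5, 23.2 and 25.4 CPM in WT and at 7.27, 11.3 and 9.89 CPM in the mutant. Here WT library 1 was the lowest of its group, and every mutant library was below it. The log2 fold change was -1.25 (SE 0.22, edgeR adjusted p = 0.00274). miR-424-3p, the more abundant arm of its hairpin in these cells, was at 18.6, 8.29 and 8.97 CPM in WT and at 3.6, 5.0 and 6.22 CPM in the mutant. Again the groups did not overlap and WT library 1 was the high one. It fell by 1.28 on the log2 scale (SE 0.32, edgeR adjusted p = 0.0231). miR-450b-5p had the tightest replicates, at 59.1, 54.6 and 54.1 CPM in WT and 32.8, 29.6 and 30.7 CPM in the mutant. The mutant level was 55.4% of WT, a log2 fold change of -0.85 (SE 0.17, edgeR adjusted p = 0.0074).

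The remaining 2 members did not pass the test. miR-424-5p, the arm with the miR-15/16 seed, was at 3.63, 2.40 and 2.19 CPM in WT and 1.90, 1.11 and 1.95 CPM in the mutant, groups that did not overlap but rested on 26 to 67 counts per library (log2 fold change -0.76, SE 0.38, edgeR adjusted p = 0.230). miR-450a-5p overlapped between the groups, at 14.5, 11.8 and 8.60 CPM against 11.7, 9.33 and 6.90 CPM (log2 fold change -0.32, 95% interval -0.86 to 0.21, edgeR adjusted p = 0.466). In all, 5 of the 6 members had every mutant library below every WT library, which held for 11.5% of tested miRNAs. Without WT library 1 the calls for miR-503-5p (-1.19, adjusted p = 0.00273), miR-542-3p (-1.37, adjusted p = 0.00195) and miR-450b-5p (-0.83, adjusted p = 0.0142) stood in edgeR. That for miR-424-3p was lost (-0.82, edgeR adjusted p = 0.118), as it was without mutant library 1 (adjusted p = 0.0928) or mutant library 2 (adjusted p = 0.0606). When only these 6 libraries were fitted, rather than all 15 hESC libraries with a shared estimate of spread, the fold changes were nearly the same but none of the 4 members passed (lowest edgeR adjusted p = 0.103) and neither did any other miRNA.

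Marker sums also differed between WT and mutant. Fibroblast markers (miR-199a and miR-199b arms, miR-214-3p, miR-143-3p, miR-145-5p) summed to 568, 271 and 290 CPM in WT and 228 to 293 CPM in the mutant, with 2 of 5 tested called lower (4.51% of all tested miRNAs were) and none of the list at 0 in the first library of either table. Muscle markers (miR-1-3p, miR-133a-3p) summed to 630 to 1041 CPM in WT and 120 to 302 CPM in the mutant, with 1 of 2 called lower. The blood markers summed to 223 to 243 CPM and 123 to 221 CPM, and the hESC markers, 4 of 5 called higher (2.91% of all tested miRNAs were), to 178089 to 192365 CPM and 230635 to 397533 CPM. None of these 4 sums overlapped between the groups except that of the fibroblast markers. Their part in the lower cluster levels was not tested.

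**Figure D1:**
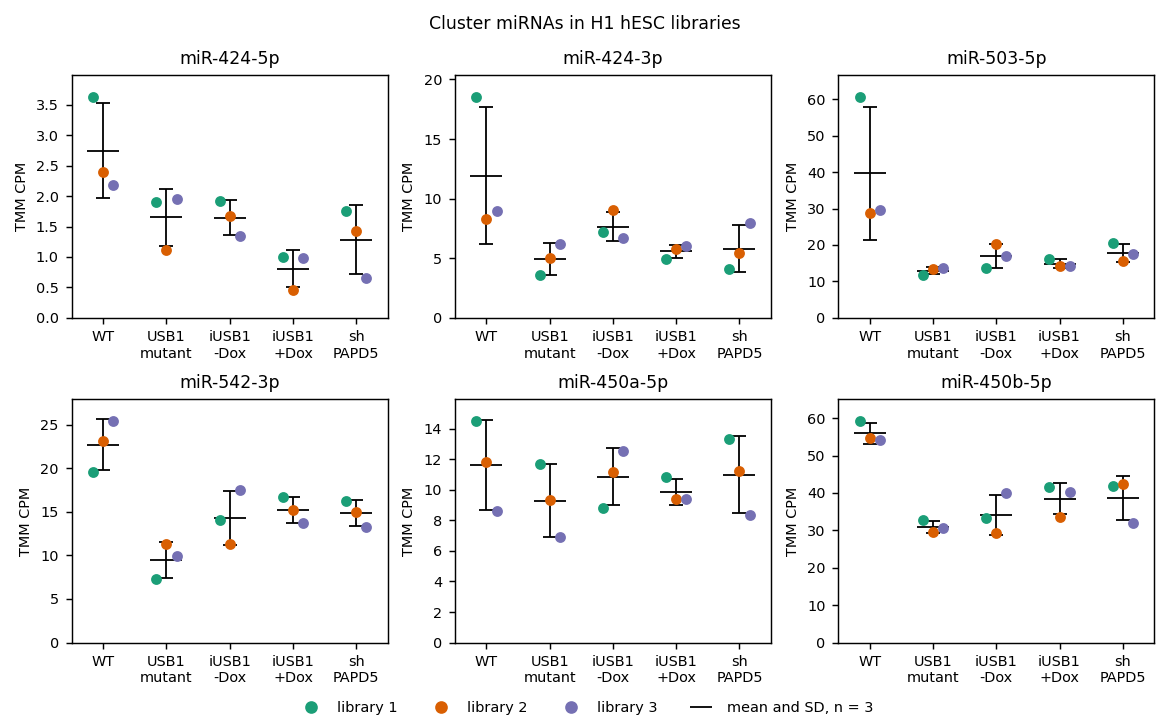
Level of each tested member (y axis, TMM-scaled CPM from 0) in the 3 libraries of each of 5 hESC groups (x axis), with the mean and SD as black bars. WT is the highest group for all 6 members, and WT library 1 stands apart for miR-503-5p (60.7 CPM) and miR-424-3p (18.6 CPM).

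Adding Dox to the iUSB1 cells was not followed by a detectable change of the cluster. Between iUSB1 cells with and without Dox 0 of 6 members passed in edgeR, as did 0 of 998 miRNAs (0%). At an unadjusted p under 0.05 there were 1 member and 45 miRNAs, and DESeq2 called 0 members and 1 miRNA. That member was miR-424-5p, at 0.993, 0.459 and 0.977 CPM with Dox (19, 7 and 13 counts) and 1.91, 1.68 and 1.35 CPM without it (37, 23 and 30 counts). The Dox libraries were all lower, away from the WT level (log2 fold change -1.01, SE 0.41, edgeR adjusted p = 0.994). They were separated from those without Dox for 2 members, miR-424-5p and miR-424-3p, as for 7.11% of tested miRNAs. For the other 5 members the log2 fold change lay between -0.45 and 0.17. The 95% intervals for miR-503-5p (-0.73 to 0.36) and miR-450b-5p (-0.20 to 0.54) end below the estimated deficits against WT without Dox (1.23 and 0.71). Those deficits are uncertain themselves, with 95% intervals of the log2 fold change of -1.78 to -0.68 and -1.08 to -0.34. For miR-450b-5p the 2 intervals overlap in size, and both comparisons use the same libraries without Dox.

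Before Dox, the iUSB1 cells had levels between those of the mutant and WT for most members. Against the mutant all 6 fold changes were positive, from 0.02 to 0.63 on the log2 scale, but 0 of 6 members and 0 of 998 miRNAs (0%) passed in edgeR, with 1 member and 89 miRNAs at an unadjusted p under 0.05 and 0 members and 2 miRNAs called by DESeq2. For miR-542-3p, miR-424-3p and miR-503-5p every library was above the mutant range (5.81% of tested miRNAs). Against WT, 2 of 6 members fell, beside 3.41% of tested miRNAs. They were miR-503-5p at 13.7, 20.2 and 16.9 CPM (log2 fold change -1.23, SE 0.26, edgeR adjusted p = 0.0120) and miR-450b-5p at 33.3, 29.3 and 39.9 CPM (-0.71, SE 0.17, edgeR adjusted p = 0.0299). All these libraries were below the WT range of each miRNA, as in 4 of 6 members and 11.6% of tested miRNAs. The call for miR-503-5p was lost without WT library 1 (-0.78, edgeR adjusted p = 0.0566), without iUSB1 library 1 (adjusted p = 0.0864) or without iUSB1 library 3 (adjusted p = 0.0813), and that for miR-450b-5p was lost whichever of the 6 libraries was left out (edgeR adjusted p = 0.0586 to 0.110).

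With Dox, 3 of 6 members were lower than in WT, beside 6.01% of tested miRNAs, and 5 of 6 had every Dox library below WT (15.3% of tested miRNAs). miR-503-5p was at 16.2, 14.3 and 14.1 CPM (log2 fold change -1.41, SE 0.26, edgeR adjusted p = 0.00278), and this call held without each library in turn (edgeR adjusted p = 0.0016 to 0.0256). miR-424-5p had the largest fold change of any member in hESCs, -1.75 (SE 0.41, edgeR adjusted p = 0.0130), which was lost without Dox library 2 (-1.49, adjusted p = 0.0912) or WT library 1 (-1.49, adjusted p = 0.0611). miR-424-3p, at 4.96, 5.77 and 6.01 CPM, passed narrowly (-1.10, SE 0.32, edgeR adjusted p = 0.0445) and was lost without WT library 1 (-0.63, adjusted p = 0.265) or any 1 of the Dox libraries (adjusted p = 0.104 to 0.141). Against WT the Dox-treated cells also had 2 of 2 muscle, 2 of 5 fibroblast and 1 of 3 blood markers called lower, and the cells without Dox 1, 2 and 1, beside the shares of all miRNAs given above. The part of these markers in the cluster values was not tested.

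PAPD5 knockdown in the mutant gave small positive fold changes for 5 of 6 members, none of which passed. In shPAPD5 against the mutant 0 members and 0 of 998 miRNAs (0%) were called by edgeR, with 1 member and 116 miRNAs at an unadjusted p under 0.05 and 0 members and 8 miRNAs called by DESeq2. The member was miR-542-3p, at 16.3, 15 and 13.3 CPM, all above the mutant libraries (7.27, 11.3 and 9.89 CPM) and below the WT libraries. Its log2 fold change was 0.64 (95% interval 0.19 to 1.1, edgeR adjusted p = 0.300). miR-503-5p, at 20.5, 15.5 and 17.4 CPM, was likewise between the mutant and WT ranges, a separation from the mutant that 8.52% of tested miRNAs had (0.46, 95% interval -0.08 to 1.01, edgeR adjusted p = 0.524). Against WT no miRNA passed in the shPAPD5 cells (0 of 998, 0%, 130 at an unadjusted p under 0.05 and 21 by DESeq2). The members had log2 fold changes of -1.16 to -0.08, 5 of 6 at an unadjusted p under 0.05 and 5 of 6 with every library below WT (10% of tested miRNAs), and DESeq2 called 1, miR-503-5p. Its edgeR value, -1.16 (SE 0.26), missed the threshold at adjusted p = 0.0509 and passed without WT library 2 (-1.32, adjusted p = 0.0459). The 4 comparisons with WT use the same 3 WT libraries, so their common direction for the cluster is not independent evidence.

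**Figure D2:**
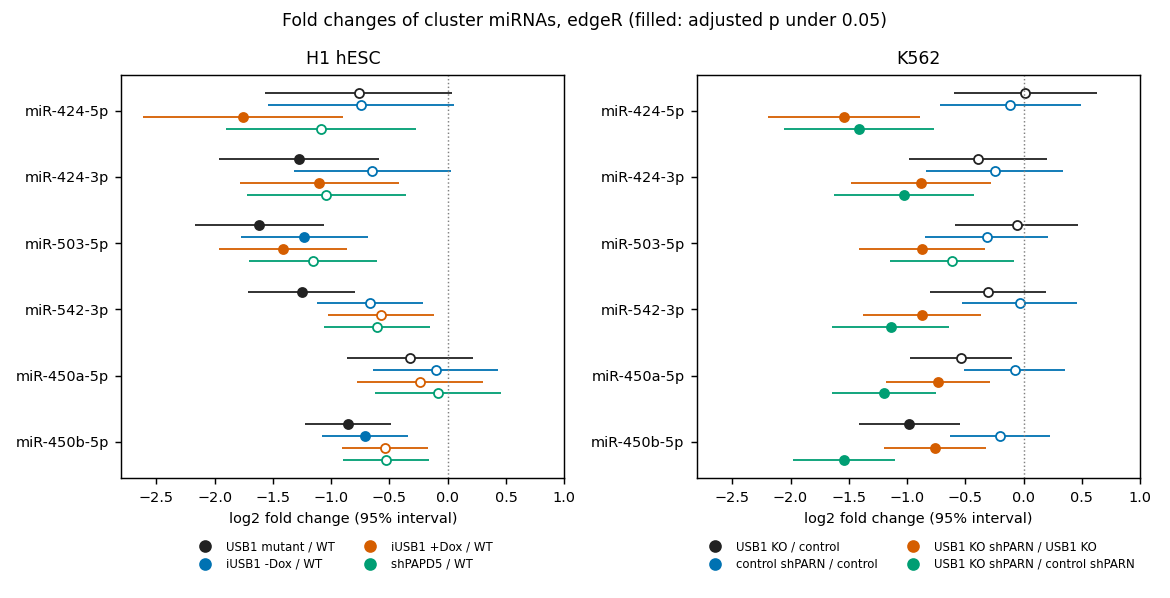
Log2 fold change (x axis) of each tested member (y axis) with its 95% interval, in 4 comparisons within hESCs (left) and 4 within K562 (right), where filled points have an edgeR adjusted p under 0.05. Left, all points lie below 0, from -1.75 to -0.08, and the 4 comparisons share their WT libraries. Right, the 2 comparisons of the USB1 KO with shPARN reach -1.54. The points of the USB1 KO against control run from -0.98 (miR-450b-5p, filled) to 0.02. Those of the control with shPARN against control run from -0.32 to -0.03.

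In K562, 1 member was called in the USB1 KO without shPARN. In USB1 KO against control cells miR-450b-5p fell, 1 of 6 tested members beside 3.18% of all 881 tested miRNAs. It was at 68.5, 68.7 and 86.3 CPM in the control libraries and 45.2, 38.5 and 28.6 CPM in the KO, with no overlap, as in 15.8% of tested miRNAs. The log2 fold change was -0.98 (SE 0.20, edgeR adjusted p = 0.0135). It missed the threshold without KO library 2 (-1.0, edgeR adjusted p = 0.0578) or control library 3 (-0.85, adjusted p = 0.0611). It passed without control library 1 (-1.04, edgeR adjusted p = 0.0372) or control library 2 (-1.04, adjusted p = 0.0263), the ones holding hESC markers, and without the shallow KO library 3 (-0.83, adjusted p = 0.0385). miR-450a-5p, its near neighbour in sequence and position, had a fold change of -0.54 (95% interval -0.98 to -0.10, edgeR adjusted p = 0.178), with overlapping groups. miR-424-5p (0.02, 95% interval -0.60 to 0.63) and miR-503-5p (-0.06, 95% interval -0.59 to 0.47) were near 0. After TMM scaling the shallow KO library 3 was the lowest of its group for all of the 6 members, for example 19.4 CPM of miR-503-5p (40 counts) against 34.9 and 35.4 CPM in the other KO libraries, and without it the median over the members moved from -0.35 to -0.13. As shares of the library total, miR-450a-5p was highest in that library (23.5 against 22.4 and 22 CPM) and miR-424-5p lay between the other KO libraries. KO library 3 also held 6061 CPM of fibroblast markers, against 1321 and 1632 CPM in KO libraries 1 and 2. Endothelial markers (miR-126 arms) summed to 13466 to 16851 CPM in the KO and 27413 to 30509 CPM in the control. No marker of these 2 lists was called, and their part in the cluster values was not tested.

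PARN knockdown in control K562 cells moved no member past the threshold (0 of 6 in edgeR and 0 at an unadjusted p under 0.05, 0 by DESeq2, beside 1.48% of tested miRNAs called). Their log2 fold changes ran from -0.32 to -0.03, and miR-503-5p alone had every library below the control (11.4% of tested miRNAs). The 95% intervals of miR-450a-5p (-0.51 to 0.36) and miR-542-3p (-0.53 to 0.46) leave out a change of 1 log2 unit in either direction.

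The combination of USB1 KO and shPARN had the lowest level of every tested member in K562. The member sum was 95.3, 90.9 and 94.4 CPM, against 205, 183 and 116 CPM in the USB1 KO and 197, 185 and 243 CPM in the control with shPARN. Against the USB1 KO all 6 tested members fell, where 5.68% of 881 tested miRNAs fell and 9.08% rose, and the median log2 fold change was -0.87 beside 0.11 over all tested miRNAs. Against the control with shPARN 5 of 6 fell, where 4.2% of tested miRNAs fell and 4.99% rose, with a median of -1.17 beside 0.02. Both comparisons share the 3 libraries of the combination.

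miR-424-5p fell most against the USB1 KO. It was at 8.26, 8.37 and 6.31 CPM in the USB1 KO, 7.54, 8.57 and 5.15 CPM in the control with shPARN, and 2.19, 2.2 and 3.6 CPM in the combination. Every library of the combination was below every library of the other groups. The log2 fold change was -1.54 against the KO (SE 0.30, edgeR adjusted p = 0.0060) and -1.41 against the control with shPARN (SE 0.30, edgeR adjusted p = 0.0107), and both calls held without each library in turn. miR-450b-5p was at 59.0, 61.0 and 74.5 CPM in the control with shPARN and 25.2, 20.6 and 21.0 CPM in the combination. This was the largest fall against that control, -1.54 (SE 0.20, edgeR adjusted p = 0.000823), and against the KO, already low in miR-450b-5p, it was -0.76 (SE 0.20, edgeR adjusted p = 0.0283). miR-450a-5p went from 27.2, 26.7 and 30.2 CPM to 13.5, 11.6 and 11.6 CPM (-1.20 against the control with shPARN, SE 0.21, edgeR adjusted p = 0.00338). All the combination libraries were again below the others. miR-542-3p went from 23.1, 19.3 and 23.1 CPM to 12.5, 8.42 and 8.75 CPM (-1.14, SE 0.23, edgeR adjusted p = 0.0101).

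miR-424-3p was at 30.1, 30.3 and 29.6 CPM in the combination, against 54.1, 46.9 and 82.5 CPM in the control with shPARN (-1.03, SE 0.28, edgeR adjusted p = 0.0334) and 73.8, 59.3 and 31.5 CPM in the KO (-0.88, SE 0.28, edgeR adjusted p = 0.0492). KO library 3 came close to the combination. miR-503-5p was the 1 member without a call against the control with shPARN, at 11.9, 17.8 and 19.8 CPM against 25.9, 22.3 and 27.7 CPM (-0.62, SE 0.25, edgeR adjusted p = 0.133), although these libraries did not overlap. Against the KO it overlapped through KO library 3 and passed (-0.87, edgeR adjusted p = 0.0354). All 6 members had the combination below the control with shPARN in every library (14.1% of tested miRNAs), and 5 of 6 below the KO (12% of tested miRNAs).

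The calls against the control with shPARN were the firmer ones. Those of miR-424-5p, miR-450a-5p, miR-450b-5p and miR-542-3p held without each library in turn, whereas that of miR-424-3p was lost without any 1 of the combination libraries (edgeR adjusted p = 0.0584 to 0.0747) or without library 3 of the control with shPARN (-0.75, adjusted p = 0.126). Against the KO, miR-424-5p alone held throughout, and the other 5 lost their call without KO library 1 (edgeR adjusted p = 0.111 to 0.223), KO library 2 (0.0858 to 0.141) or library 2 of the combination (0.0741 to 0.116), 3 did so without library 1 and 3 without library 3 of the combination, and all 6 stood without the shallow KO library 3. Fitting only the 6 libraries compared left 1 of 6 calls against the KO and all 5 calls against the control with shPARN. Library 1 of the combination held 12562 CPM of fibroblast markers, mostly miR-143-3p, against 1335 and 522 CPM in libraries 2 and 3, while its member sum (95.3 CPM) was within 5 CPM of theirs. Some markers were called lower in the combination too. Against the KO these were 3 of 5 blood and 2 of 5 fibroblast markers, beside 5.68% of all tested miRNAs. Against the control with shPARN it was 1 of 5 of each list, beside 4.2% of all tested miRNAs. The other markers were not called, and 3 of 5 fibroblast markers had positive fold changes in each comparison (list medians 0.11 and 0.78). Of the 5 blood markers 1 was positive against the KO and 2 against the control with shPARN. Their summed levels overlapped between the KO (7859 to 9897 CPM for blood, 1321 to 6061 CPM for fibroblast markers) and the combination (6106 to 9810 CPM and 522 to 12562 CPM), and their part in the cluster values was not tested.

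**Figure D3:**
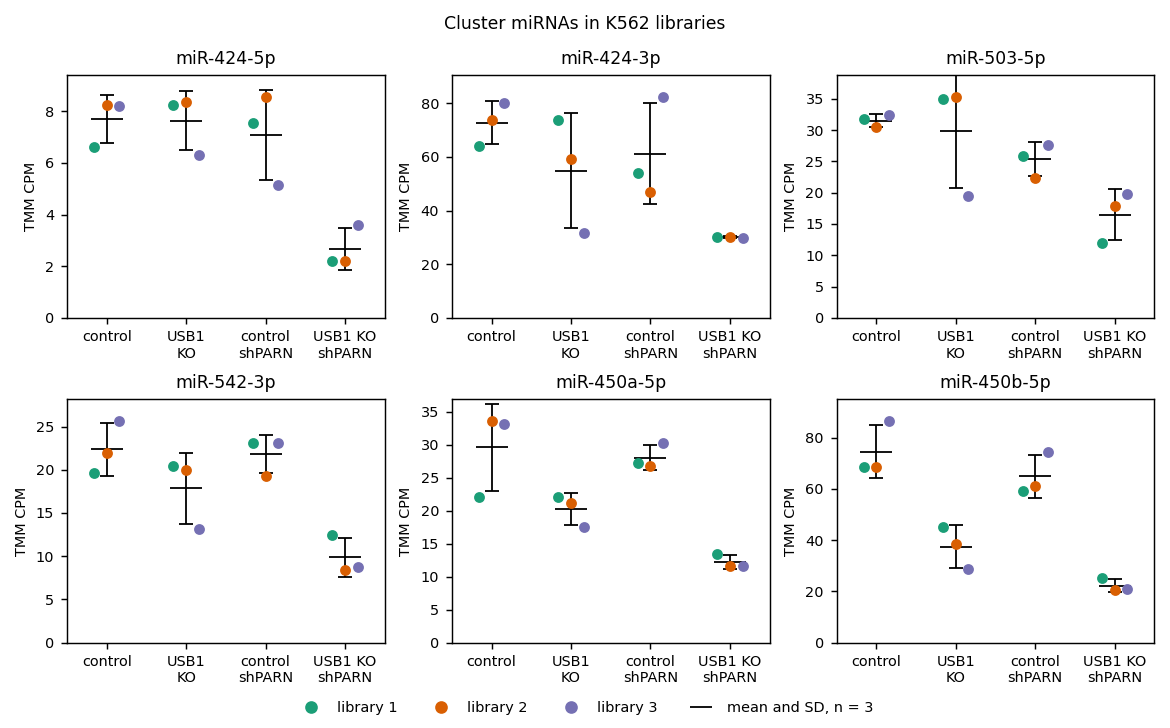
Level of each tested member (y axis, TMM-scaled CPM from 0) in the 3 libraries of each of 4 K562 groups (x axis), with the mean and SD as black bars. The USB1 KO with shPARN is the lowest group for all 6 members, and the control is the highest.

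Whether PARN knockdown acted differently with and without USB1 was tested as an interaction. It called 0 of 6 members in edgeR, beside 1.82% of 881 miRNAs in either direction, with 3 members at an unadjusted p under 0.05 and 1 called by DESeq2. All 6 interaction terms were negative, from -1.43 to -0.56 on the log2 scale. That of miR-424-5p was -1.43 (SE 0.41, 95% interval -2.32 to -0.54, edgeR adjusted p = 0.107, and 0.0308 in DESeq2). It passed in edgeR without library 3 of the combination (-1.74, adjusted p = 0.0355).

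The USB1 loss effect differed between the lines for miR-503-5p. Its log2 fold change on USB1 loss was 1.60 units lower in hESCs than in K562 (SE 0.39, edgeR adjusted p = 0.0152), 1 of 6 tested members beside 1.15% of 871 miRNAs in that direction. In every hESC mutant library it was below every WT library, whereas the K562 groups overlapped. The difference was not called without WT hESC library 1 (-1.05, edgeR adjusted p = 0.110), K562 KO library 1 (-1.46, adjusted p = 0.0586) or K562 KO library 2 (-1.44, adjusted p = 0.0602), nor when only the 4 groups compared were fitted (adjusted p = 0.0636). For miR-542-3p the difference was -1.0 (SE 0.33, edgeR adjusted p = 0.101), and for miR-450b-5p, called lower in both lines, 0.09 (95% interval -0.49 to 0.68). The cell type and the way USB1 was lost, a mutation in hESCs and a knockout in K562, cannot be told apart here.

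Levels in the unperturbed lines depended on the scaling. With TMM over both lines, WT hESCs against control K562 had 3 members higher (31.5% of 871 miRNAs were) and 1 lower (29.7% were). miR-503-5p (log2 fold change 1.42, edgeR adjusted p = 8.48e-05), miR-542-3p (1.12, adjusted p = 0.000196) and miR-450b-5p (0.68, adjusted p = 0.00456) were higher in hESCs, and miR-424-3p was lower (-1.51, adjusted p = 0.000243). With library totals in place of TMM the median of all miRNAs moved from 0.00 to -1.19, and miR-450b-5p turned to -0.51 (edgeR adjusted p = 0.0237) and miR-542-3p to -0.09 (adjusted p = 0.726), while miR-503-5p dropped to 0.25 (adjusted p = 0.426). miR-424-5p (-1.57, edgeR adjusted p = 0.00044) and miR-450a-5p (-1.43, adjusted p = 5.44e-05) were then called lower in hESCs as well, making 4 of 6 members lower under that scaling. miR-424-3p was lower in hESCs under both scalings (-2.68 with library totals). As shares of the library total, miR-424-3p was at 19.7, 8.15 and 8.36 CPM in WT hESCs and 70.4, 82.4 and 79.5 in control K562. The TMM call of miR-450b-5p was lost without WT library 1 (0.47, edgeR adjusted p = 0.0812) or WT library 2 (0.54, adjusted p = 0.0518).

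The balance of the miR-424 arms, a ratio within a library that does not depend on scaling, was less tilted to the 3p arm in WT hESCs than in control K562, without a test that could pass at this size. The log2 ratio of 3p to 5p counts (0.5 added to each) was 2.34, 1.77 and 2.02 in WT hESCs and 3.27, 3.15 and 3.28 in control K562. The 3p arm was the more counted in all 27 libraries, with 596 counts against 135 summed over the WT hESC libraries and 2055 against 216 over the control K562 libraries. The groups did not overlap, a mean difference of -1.19 (exact two-sided permutation p = 0.1, the smallest that 3 against 3 allows; Benjamini-Hochberg adjusted p = 0.571 over 20 arm comparisons). miR-503 had the opposite balance. Its 3p arm was counted at most 17 times in a library, and the log2 ratio was -7.43 ± 1.42 in WT hESCs and -4.75 ± 0.50 in control K562 (SD, n = 3), again without overlap (exact two-sided permutation p = 0.1). Within a line no arm comparison was free of overlap. In hESCs the miR-424 ratio was 1.57 ± 0.62 in the mutant, 2.2 ± 0.26 in iUSB1 without Dox, 2.81 ± 0.67 with Dox and 2.21 ± 1.19 with shPAPD5, and in K562 2.75 ± 0.44 in the KO, 3.09 ± 0.80 in the control with shPARN and 3.50 ± 0.42 in the combination (SD, n = 3). The KO libraries (3.15, 2.82 and 2.28) had a mean 0.48 below that of the control, with an overlap through KO library 1 alone, and with 3 libraries against 3 no such test can reach 0.05.

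**Figure D4:**
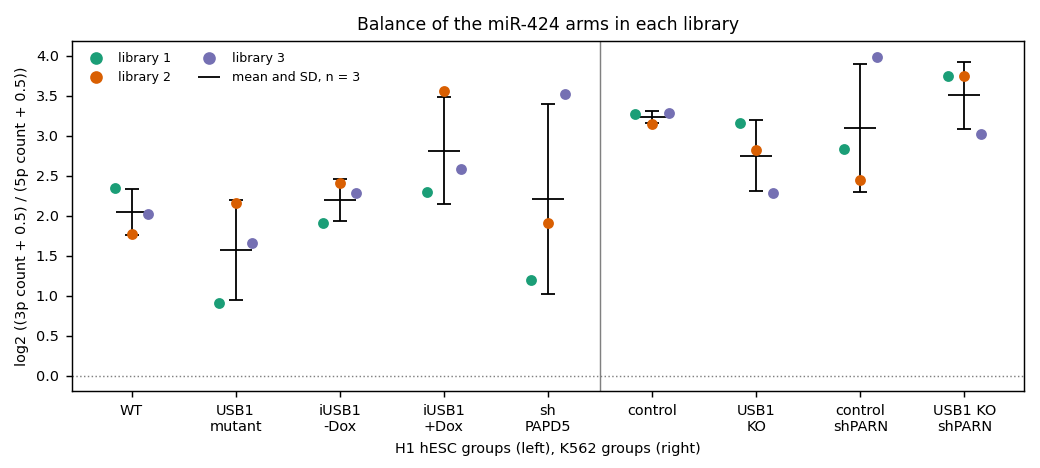
Log2 ratio of miR-424-3p to miR-424-5p counts (y axis, 0.5 added to each count, dotted line at equal arms) in each of 27 libraries by group (x axis), with the mean and SD as black bars. All libraries lie above 0, and the 3 WT hESC libraries (1.77 to 2.34) are below the 3 control K562 libraries (3.15 to 3.28).

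The other arms of the same hairpins were rare. miR-450b-3p was unlisted in every table, and miR-503-3p was listed in 7 of 9 at 0 to 17 counts per library. miR-450a-2-3p was the 1 other arm tested within the lines, at 1.41, 2.09 and 1.17 CPM in WT hESCs and 0.852, 1.23 and 0.225 CPM in the mutant (log2 fold change -0.93, SE 0.50, edgeR adjusted p = 0.264), with overlapping groups. In the USB1 KO with shPARN it was at 6, 7 and 2 counts (-1.37 against the control with shPARN, SE 0.58, edgeR adjusted p = 0.154).

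The tested members were more closely correlated in K562 than in hESCs, as a description without a test. Over the 12 K562 libraries the Pearson correlation of log2 CPM between 2 members was 0.70 to 0.96 over the 15 pairs (median 0.82), and over the 15 hESC libraries 0.13 to 0.83 (median 0.50). After the group means were taken out the medians were 0.41 and 0.10. The miRNAs outside these hairpins with a profile most like the mean of the members were miR-199a-3p (r = 0.881), miR-489-3p (0.879), miR-653-5p (0.874), miR-125b-5p (0.867) and miR-30a-3p (0.858) over the 15 hESC libraries. In K562 they were miR-642a-3p (r = 0.932), miR-767-5p (0.926), miR-628-3p (0.924), miR-301b-3p (0.917) and miR-423-5p (0.911) over 12 libraries. They are the highest of 991 and 874 miRNAs compared, and the values share their libraries and scaling. Spearman's rho for the same miRNAs was lower, 0.50 to 0.671 in hESCs and 0.692 to 0.874 in K562.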

How the data were processed

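Small RNA libraries (Lexogen kit, Trizol RNA, paired-end NovaSeq) were processed by the authors, who trimmed adaptors with cutadapt 2.5, aligned reads to miRBase mature sequences with Bowtie2 2.2.9 without a seed mismatch, used SAMtools 1.3.1 and deposited raw counts per miRNA, unnormalized. The counts do not separate tailed from untailed 3' ends. Each of the 9 tables lists only miRNAs with a count in its first column, and 0 columns of values were left out. Groups came from the labels. The columns of the K562 control table are headed like the hESC WT samples, but the sample descriptions assign that table to the K562 control, which was followed, and these 3 libraries are numbered in column order only.

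Adaptor rows were removed from totals and tests. For each line, edgeR 4.0.16 (R 4.3.3; TMM, robust quasi-likelihood test) was fitted once to all groups on miRNAs listed in all its tables and passing filterByExpr (minimum count 10, total 15), leaving 998 of 2067 in hESCs, 881 of 1935 in K562 and 871 of 2276 over both lines. Of the 7 members 6 were tested. SE is the log2 fold change divided by the square root of F. P-values were Benjamini-Hochberg adjusted within each of 14 comparisons, and called means adjusted p under 0.05. Arm ratios used an exact permutation test. Alternatives were RLE, library totals, DESeq2 1.42.0, other filters, fewer groups, a replicate block and each library left out. The named miRNAs are the members, fixed lists of other arms, seed relatives, the neighbouring cluster and markers, and the 5 most correlated miRNAs. The members and lists were chosen with earlier results of these data known. Same-numbered libraries of the USB1 KO and the control, both with shPARN, deviated together (r = 0.164 to 0.344). The values given for that comparison are unpaired, and pairing entered only through the replicate block. The fits were tested on simulated data, the outcome of which is not given here. Intervals of counts cover counting error only.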

Additional observations from a re-analysis of the deposited data

Results flagged for a closer look

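The effect of USB1 loss on miR-503-5p differed between the cell lines when the difference itself was tested. The log2 fold change of USB1 mutant against WT hESCs minus that of USB1 KO against control K562 was -1.60 (95% interval -2.40 to -0.80, edgeR adjusted p = 0.0152, n = 3 libraries in each of 4 groups). miR-503-5p was lower in 3 of 3 mutant hESC libraries than in any WT library, whereas in K562 the KO libraries were at 34.9, 35.4 and 19.4 CPM, 2 above and 1, the shallow library 3, below the control range of 30.4 to 32.5 CPM. Without WT hESC library 1 the difference was -1.05 (edgeR adjusted p = 0.110). How far that library and the cell line each account for it was not tested.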

How the results depend on the processing

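Of 1197 recomputed fold changes of the members, 1103 kept their side of the threshold and, where called, their direction. Some uncalled ones near 0 changed sign among these. An example is miR-450a-5p in iUSB1 without Dox against WT, at -0.10, and at 0.08 without WT library 1. Counts of called members that moved by more than 1.5 times come first. Fitting only the groups compared, or only miRNAs listed in their tables, gave 0 instead of 4 for USB1 mutant against WT hESCs, 0 instead of 2 for iUSB1 without Dox against WT, 1 instead of 6 for USB1 KO shPARN against USB1 KO, and 0 instead of 1 for the difference between the lines. DESeq2 gave 1 instead of 0 for shPAPD5 against WT and for the shPARN interaction, and 2 instead of 1 for the difference between the lines. iUSB1 without Dox against WT had 1 with library totals or without a filter, and with Dox against WT had 1 with a CPM minimum of 10. Smaller moves were 3 instead of 2 for iUSB1 without Dox and 4 instead of 3 with Dox against WT in DESeq2, and 2 instead of 3 for the latter with only its groups or tables. A CPM minimum of 10 gave 3 instead of 4 for mutant against WT, 5 instead of 6 and 4 instead of 5 for USB1 KO shPARN against USB1 KO and against control shPARN, and no filter 5 instead of 6 for the former. That minimum took miR-424-5p out of the tests in both lines and miR-424-3p in hESCs. The lower counts given with it, also for iUSB1 with Dox against WT, therefore reflect members not tested. Leaving out 1 library gave 3 to 4 for mutant against WT, 4 to 5 for USB1 KO shPARN against control shPARN, 3 to 4 for WT hESCs against control K562, 0 to 1 for iUSB1 without Dox, 1 to 3 with Dox and 0 to 1 for shPAPD5, each against WT, 0 to 1 for USB1 KO against control, 1 to 6 for USB1 KO shPARN against USB1 KO, 0 to 1 for the interaction and 0 to 2 for the difference between the lines. Between WT hESCs and control K562, library totals turned miR-450b-5p to -0.51 and miR-542-3p to -0.087 on the log2 scale, against a median of -1.19 over all miRNAs. The replicate block left 4 called in mutant against WT, 2 of 3 in iUSB1 with Dox against WT and 5 of 6 in USB1 KO shPARN against USB1 KO. The call lost in the last 2 of these was that of miR-424-3p. The block changed no call in USB1 KO shPARN against control shPARN, whose main fit was unpaired. Same-numbered libraries correlated at -0.18 to 0.35 over 9 comparisons, all 3 pairs above 0.1 in 1 of them. No block was fitted in the 5 comparisons with the K562 control, whose libraries carry no usable number. The counts of miR-424-5p in hESCs (down to 7) and of miR-450a-2-3p limit what could be detected.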

Other observations

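The miRNAs with the same seed as miR-424-5p but encoded elsewhere (miR-15a, miR-15b, miR-16, miR-195 and miR-497, 5p arms) had a median log2 fold change of 0.50 in USB1 mutant against WT hESCs. The largest was that of miR-15a-5p (0.83, SE 0.30, edgeR adjusted p = 0.102), 1 of 5 was below 0 and none was called. Their sum, as CPM of the library total, was 816, 363 and 315 in mutant libraries 1 to 3. In WT libraries 1 to 3 it was 394, 357 and 338, so mutant library 1 alone was above the WT range. In K562 USB1 KO against control cells miR-497-5p rose (1.09, edgeR adjusted p = 0.0484), a call lost whichever library was left out (adjusted p = 0.0695 to 0.186). In the USB1 KO with shPARN against the KO miR-195-5p (-1.17, adjusted p = 0.0146) and miR-497-5p (-1.19, adjusted p = 0.0207) fell, each losing its call without 3 of the 6 libraries (edgeR adjusted p = 0.0515 to 0.0805). Another miRNA cluster on the X chromosome, 370 kb away (miR-106a, miR-18b, miR-20b and miR-363), had 2 of 4 tested members higher in mutant than in WT hESCs, where 2.91% of all tested miRNAs were. miR-363-3p (1.02, edgeR adjusted p = 0.0111) kept its call without each library in turn. miR-18b-5p (1.58, edgeR adjusted p = 0.0351) rested on mutant library 1, at 35.8 CPM against 10.1 and 7.50 CPM in the other mutant libraries and 5.53 to 6.56 CPM in WT, and without that library it was 0.56 (adjusted p = 0.285). Its call was also lost without any 1 of the WT libraries (adjusted p = 0.0900 to 0.104). These omissions were chosen after seeing the data.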
